A study of Mus musculus with 2 samples.

Results

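The genes described here are the laminins and integrins of the newborn mouse forebrain, 37 of the 22028 protein-coding genes in the gene tables. They were chosen by symbol alone: 11 genes for laminin chains, 18 for integrin alpha subunits and 8 for integrin beta subunits. No measured value entered this symbol rule, though the choice was made with earlier results of these data known. PolyA RNA-seq had been made from 2 newborn B6NCrl pups (age 0 days), pup 3 and pup 1, each library from 1 whole forebrain and 10 ng of RNA. Both pups belong to 1 untreated group and share a donor identifier in the labels, which record no sex, so the design implies levels, their order and the spread between pups, with no test between groups. Differences are coded as pup 3 over pup 1.

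Laminins are large secreted proteins, each built of an alpha, a beta and a gamma chain, which polymerise on cell surfaces and start the assembly of basement membranes. Integrins are receptors of 1 alpha and 1 beta subunit that span the plasma membrane and tie such matrices to the actin cytoskeleton. In the forebrain, laminin lines the pial surface and the blood vessels. Radial glial endfeet anchor there through integrins and dystroglycan, and loss of that anchorage is known from mouse mutants to let neurons migrate past the cortical surface.

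The libraries held 41230598 expected counts in pup 3 and 40964552 in pup 1, of which the 37 genes took 16423 counts (0.0398%, 95% Wilson interval 0.0392 to 0.0404) and 18681 counts (0.0456%, 0.0450 to 0.0463). Intervals cover the counting error of reads only. The reads carry no molecular identifiers to mark copies of 1 molecule, so the intervals can be too narrow. The tissue label fitted its markers: the telencephalon list had 10 of 10 genes at 1 TPM (transcripts per 1000000 transcripts, which corrects for transcript length) or more in both pups, led by Dlx1 (83.5 TPM in pup 3, 115 TPM in pup 1), Neurod2 and Bcl11b, and the neuron list had 8 of 8, led by Tubb3, Gap43, Stmn2 and Mapt. In whole tissue, fewer cells of a type and less RNA per cell cannot be told apart.

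In both pups, 20 of the 37 genes reached 1 TPM (54.1%), against 59.5% of all protein-coding genes. They were 9 of 11 laminin genes, 8 of 18 integrin alpha genes and 3 of 8 integrin beta genes. Itga4 and Itgb2 reached it in pup 1 alone and Itgb4 in pup 3 alone, and the other 14 stayed under it in both. The median level was 1.51 TPM, against 3.77 TPM over all protein-coding genes. Integrin beta 1 (Itgb1) stood far above the rest and Itgb6 at the bottom, and in the order of mean levels 29 of the 36 neighbouring pairs had pup values that overlapped. The other 7 had separate values, among them Itgb1 over Itgav, Lamc1 over Itgb8, Itga8 over Lama5, Itgad over Itgae, Lama3 over Itgax and Itgax over Itgb6.

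**Figure D1:**
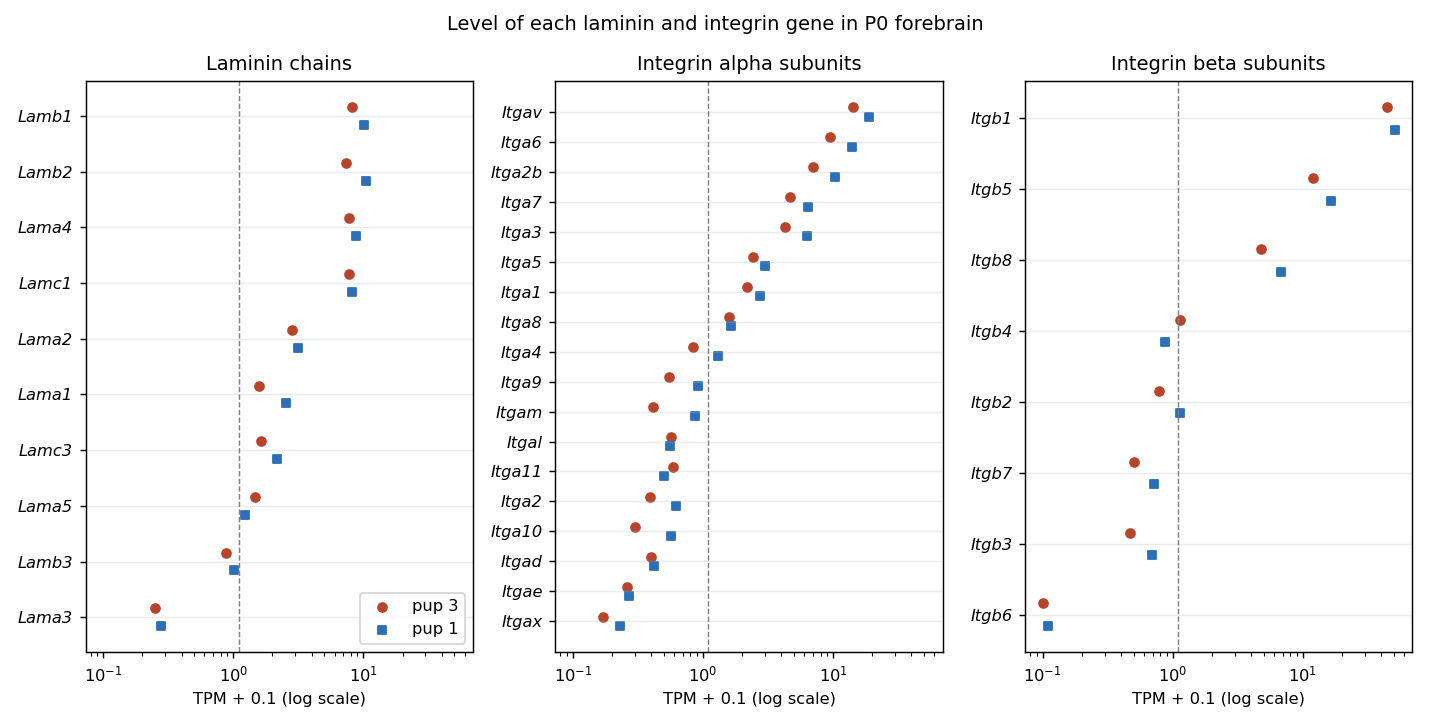
TPM + 0.1 on a log axis for 10 of the 11 laminin genes, the 18 integrin alpha and the 8 integrin beta genes, with a point for each pup (circles pup 3, squares pup 1) and a dashed line at 1 TPM. Itgb1 lies alone (44.2 TPM in pup 3, 50.8 TPM in pup 1), and 14 genes lie left of the line in both pups.

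How a gene's TPM is made up mattered for its rank. The gene TPM sums all annotated transcript entries, and a short entry turns a few reads into a high TPM. Of the 20 genes that averaged at least 1 TPM, 6 (Itga1, Itga2b, Itga6, Itgav, Lama2 and Lama5) had as their leading entry, by mean TPM over both pups, one that is not a complete coding transcript, against 12.8% of such protein-coding genes. For Itga6 this held in pup 3 alone, and in pup 1 a complete coding transcript led. A second scale was therefore set beside TPM: all counts of the gene per kilobase of its longest complete coding transcript and per 1000000 library counts (RPKM). A complete coding transcript is here an entry typed as protein coding with both ends annotated. RPKM ran below TPM for all 20 genes, and the scales have different totals, so ranks and ratios between genes are what can be compared. On this scale 15 members reached 1 RPKM in both pups, against 55.4% of protein-coding genes. The 5 highest by RPKM were Itgb1, Itgb5, Itga6, Lamb1 and Lamb2. Itgav was at rank 11 by RPKM and rank 2 by TPM, Itga2b at 14 and 7, and Lama5 at 29 and 20.

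**Figure D2:**
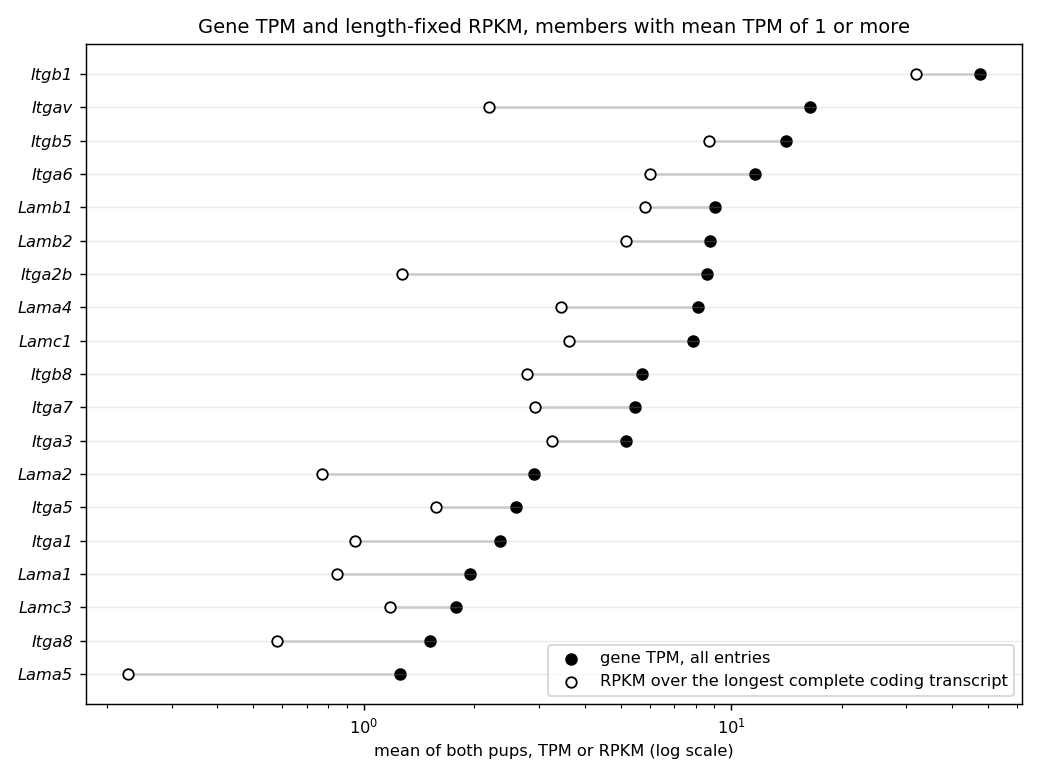
Mean over both pups of gene TPM (filled circles) and of RPKM over the longest complete coding transcript (open circles) on a log axis, for 19 of the 20 genes that averaged at least 1 TPM. The lines are longest for Itgav (16.4 TPM, 2.19 RPKM), Itga2b (8.59 TPM, 1.27 RPKM) and Lama5 (1.25 TPM, 0.229 RPKM), and short for Itgb1 (47.5 TPM, 31.9 RPKM).

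Among the laminin chains, beta 1, beta 2, gamma 1 and alpha 4 were the most abundant. Lamb1 (chr12:31265234-31329644, mm10), the beta chain of most embryonic laminins, had 8.12 TPM in pup 3 and 10.0 TPM in pup 1. Lamb2 (chr9:108479736-108490530), the beta chain of mature vessel, muscle and pial laminins, had 7.26 TPM in pup 3 and 10.3 TPM in pup 1. The beta chains overlapped between pups, with a log2 ratio of Lamb1 over Lamb2 of 0.06 ± 0.14 (SD, n = 2 pups, as for all values with ± here), which changed sign to -0.13 in posterior mean TPM. Lamb3, a chain of the skin laminin 332, had 0.78 TPM in pup 3 and 0.91 TPM in pup 1. On 76 counts in pup 3 and 95 in pup 1, a different coding transcript led in each pup, one of 4056 bases with 82.9% of its TPM in pup 3 and one of 4013 bases with 92.0% in pup 1.

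Lamc1 (chr1:153218922-153332786), the gamma chain shared by most laminins, had 7.68 TPM in pup 3 and 8.07 TPM in pup 1. Of that TPM, 43.3% in pup 3 and 25.2% in pup 1 went to an incomplete entry of 1447 bases that starts 91.0% of the way along the gene. The log2 ratio of Lamc1 over Lamb1 was -0.19 ± 0.16 in TPM and -0.67 ± 0.08 in RPKM, below 0 in both pups on both scales. Lama3, an alpha chain of epithelia, had 0.15 TPM in pup 3 and 0.18 TPM in pup 1. Lamc3 (chr2:31887291-31946539), a gamma chain whose human gene is mutated in occipital cortical malformation, had 1.52 TPM in pup 3 and 2.05 TPM in pup 1.

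The alpha chain decides which receptors a laminin binds, and here Lama4, the alpha chain of vascular laminins, led. Lama4 (chr10:38965515-39110188) had 7.68 TPM in pup 3 and 8.61 TPM in pup 1, which was 56.6% ± 1.04 of laminin alpha TPM. An entry of 511 bases with a retained intron near the 3′ end carried 40.2% of it in pup 3 and 32.0% in pup 1 on 37.5 counts in pup 3 and 29.6 in pup 1. By RPKM, Lama4 held 64.3% ± 1.44 of the alpha chains, so its lead held on both scales.

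Lama2 (chr10:26980036-27619758), the alpha chain of muscle and of glial laminin, had 2.73 TPM in pup 3 and 3.07 TPM in pup 1. Complete coding transcripts held 17.2% of that TPM in pup 3 and 21.8% in pup 1. An incomplete entry of 3383 bases, which covers the last stretch of the gene, held 52.2% in pup 3 and 45.8% in pup 1. Lama1 (chr17:67697259-67822647), the alpha chain of the earliest embryonic laminin and of the pial surface, had 1.47 TPM in pup 3 and 2.42 TPM in pup 1, from 310 counts in pup 3 and 347 in pup 1. By RPKM, Lama1 and Lama2 lay side by side at 0.848 ± 0.0714 and 0.772 ± 0.0548.

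Lama5 (chr2:180176373-180225859), an alpha chain of vessels and epithelia, had 1.37 TPM in pup 3 and 1.14 TPM in pup 1. It was the sole gene of the 20 with a higher TPM in pup 3. Its counts went the other way, 95 in pup 3 and 117 in pup 1, and its complete coding transcript had 0.24 TPM in pup 3 and 0.36 TPM in pup 1. A processed transcript of 451 bases held 37.3% of its TPM in pup 3 and 0% in pup 1, on 5.29 counts in pup 3 and 0 in pup 1. The log2 ratio of Lama4 over Lama5 was 2.61 ± 0.29 in TPM and 3.44 ± 0.11 in RPKM. Lama2 stood below Lama4 in both pups, by -1.46 ± 0.00055 in TPM and -2.03 ± 0.05 in RPKM.

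Summed over chains, alpha genes held 31.7% ± 1.5 of laminin TPM, beta genes 40.8% ± 1.84 and gamma genes 27.6% ± 0.345. By RPKM the shares were 23.0% ± 0.560, 48.9% ± 1.09 and 28.1% ± 1.65. A laminin needs 1 chain of each kind, and on both scales the beta genes together outweighed the gamma genes in both pups.

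Of the laminin-binding integrin alpha subunits, Itga6 was the highest. Itga6 (chr2:71745616-71858416), the laminin receptor subunit of radial glia and endothelium, had 9.30 TPM in pup 3 and 13.9 TPM in pup 1, from 890 counts in pup 3 and 1188 in pup 1. Itga3 (chr11:95044474-95076801), a laminin receptor subunit of migrating neurons and epithelia, had 4.17 TPM in pup 3 and 6.15 TPM in pup 1. Itga7 (chr10:128933818-128958282), best known as the laminin receptor of muscle, had 4.59 TPM in pup 3 and 6.35 TPM in pup 1. All 3 had a lower TPM in pup 3, as did 81.9% of the protein-coding genes that averaged at least 1 TPM. Itga6 lay above the others in both pups. The log2 ratio of Itga6 over Itga3 was 1.15 ± 0.02 in TPM, 0.86 ± 0.02 in RPKM and 0.29 ± 0.10 over complete coding transcripts. Together these 3 genes held 38.2% ± 1.19 of integrin alpha TPM and 58.1% ± 1.35 of integrin alpha RPKM.

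Itga6 and Itga3 each have an alternative exon near their 3′ end, of 130 bases in Itga6 and 142 in Itga3, that sets the cytoplasmic tail. When the exon is included it supplies the tail and its stop (for Itga6 the A form), and when it is skipped the last exon supplies a different tail (the B form). The coding stretches of both forms are printed here, 5′ to 3′ on the coding strand, since they are what tells the transcript forms apart. Capitals mark runs of 6 or more identical bases in the alignment of the Itga6 stretch with the Itga3 stretch of the same form.
Itga6 exon included, chr2:71853534-71853638, plus strand: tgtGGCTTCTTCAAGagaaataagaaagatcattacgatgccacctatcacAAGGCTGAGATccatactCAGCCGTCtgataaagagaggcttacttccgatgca
Itga3 exon included, chr11:95046483-95046590, minus strand: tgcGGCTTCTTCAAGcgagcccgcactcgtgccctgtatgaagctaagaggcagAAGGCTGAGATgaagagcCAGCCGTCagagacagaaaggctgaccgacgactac
Itga6 exon skipped, chr2:71855854-71856012, plus strand: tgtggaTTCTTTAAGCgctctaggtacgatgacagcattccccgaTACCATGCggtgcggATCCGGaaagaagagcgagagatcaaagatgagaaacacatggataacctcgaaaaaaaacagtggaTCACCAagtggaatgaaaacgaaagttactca
Itga3 exon skipped, chr11:95045611-95045763, minus strand: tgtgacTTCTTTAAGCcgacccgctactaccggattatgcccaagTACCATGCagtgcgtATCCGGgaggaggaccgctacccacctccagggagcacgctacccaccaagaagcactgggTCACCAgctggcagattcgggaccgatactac
The included stretches, 105 bases in Itga6 and 108 in Itga3, were identical at 65 of 105 aligned bases (61.9%), and the skipped-form stretches, 159 and 153 bases, at 92 of 153 (60.1%).

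Both forms of both genes were present in both pups. For Itga6, the complete transcript with the exon had 2.77 TPM in pup 3 and 4.94 TPM in pup 1. The one without it had 1.91 TPM in pup 3 and 2.68 TPM in pup 1. The exon-included form thus made up 62.0% ± 3.99 of the complete transcripts. Another entry, a processed transcript of 2721 bases from the 3′ end, also skips the exon, with 3.74 TPM in pup 3 and 4.55 TPM in pup 1. Counting it, the included share was 32.9% in pup 3 and 40.6% in pup 1, so which form led depended on that entry.

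For Itga3, the share of TPM that included the exon was 37.0% in pup 3 and 56.8% in pup 1 (46.9% ± 14.0), so a different form led in each pup. Most reads of the forms fall in shared exons and were apportioned by the authors' estimation, so no counting interval can be given for these shares.

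Itga7 has a pair of mutually exclusive exons in the extracellular part, here shown because 1 of the pair took most of the signal. Their alignment held no run of 6 or more identical bases, so no base is in capitals.
Itga7 exon of 120 bases, chr10:128941822-128941941, plus strand: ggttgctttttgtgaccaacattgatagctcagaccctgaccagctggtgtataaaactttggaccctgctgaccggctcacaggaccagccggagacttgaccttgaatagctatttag
Itga7 exon of 132 bases, chr10:128941445-128941576, plus strand: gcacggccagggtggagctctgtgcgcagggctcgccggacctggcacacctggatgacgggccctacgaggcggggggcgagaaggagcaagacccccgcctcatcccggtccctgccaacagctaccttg
The exon of 120 bases was in 86.2% of the TPM of both forms in pup 3 and 89.6% in pup 1 (87.9% ± 2.42), from 338 estimated counts in pup 3 and 431 in pup 1. Of these splice choices, the spread between pups was smallest here.

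**Figure D3:**
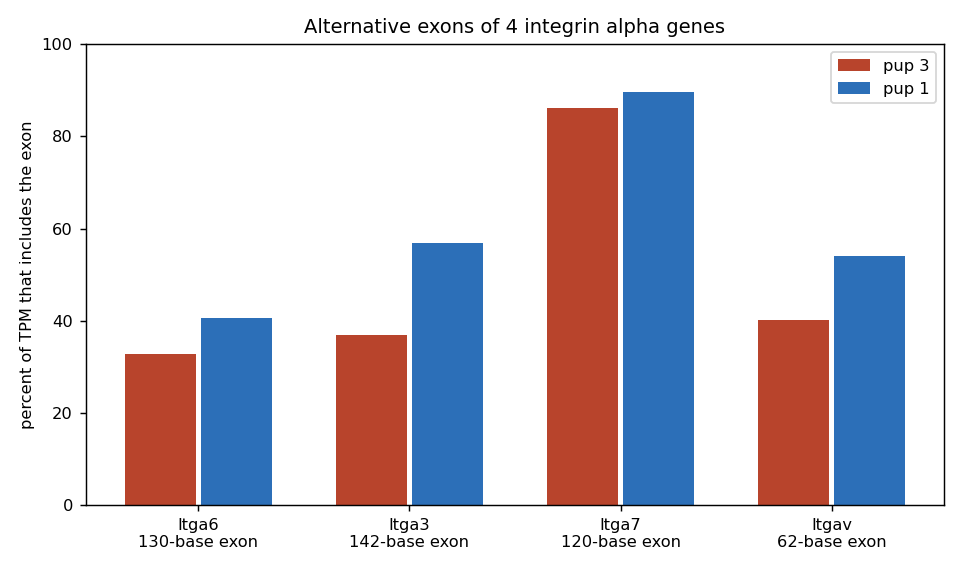
Percent of TPM of the informative entries that includes the named exon, for 4 integrin alpha genes, with pup 3 left of pup 1. The Itga7 exon of 120 bases is above 80% in both pups, and the Itga3 exon of 142 bases is at 37.0% in pup 3 and 56.8% in pup 1.

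Subunits that bind the sequence RGD in fibronectin and vitronectin form the next class, and Itgav had the highest TPM of all alpha subunits. Itgav (chr2:83724397-83806916), which pairs with several beta subunits, had 14.0 TPM in pup 3 and 18.7 TPM in pup 1. An incomplete entry of 463 bases over the last exons held 84.0% of it in pup 3 and 78.6% in pup 1, while 74.3% of its counts in pup 3 and 77.8% in pup 1 went to complete coding transcripts. Its complete transcripts summed to 1.97 TPM in pup 3 and 3.15 TPM in pup 1. Of these, the share with the alternative exon of 62 bases was 40.1% in pup 3 and 54.0% in pup 1.

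Itga5 (chr15:103344286-103366763), the fibronectin receptor subunit of vessels, had 2.31 TPM in pup 3 and 2.89 TPM in pup 1, from 278 counts in pup 3 and 276 in pup 1. Itgav exceeded Itga5 by a log2 ratio of 2.60 ± 0.07 in TPM but by 0.44 ± 0.31 in RPKM. Over complete transcripts alone the ratio was -0.15 in pup 3 and 0.36 in pup 1. Itga8 (chr2:12106632-12301922), a receptor subunit for nephronectin, had 1.48 TPM in pup 3 and 1.55 TPM in pup 1.

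Itga2b (chr11:102453297-102470122), the alpha subunit of the platelet fibrinogen receptor, had 6.94 TPM in pup 3 and 10.2 TPM in pup 1, rank 7 among the 37 genes. Complete coding transcripts held 4.61% of that TPM in pup 3 and 4.30% in pup 1, which was 0.32 TPM in pup 3 and 0.44 TPM in pup 1. The leading entry was a processed transcript of 623 bases from the 3′ end, with 65.1 counts in pup 3 and 77.9 in pup 1. Its platelet partner Itgb3 had 0.37 TPM in pup 3 and 0.59 TPM in pup 1. Of 8 platelet and megakaryocyte markers, 2 reached 1 TPM in both pups: Pf4 (61.0 TPM in pup 3, 50.4 TPM in pup 1), which macrophages at brain borders also express, and Gp1bb (9.09 TPM in pup 3, 7.79 TPM in pup 1). The next highest were Ppbp and Gp9, at 0.23 TPM or less, and Gp6, the platelet collagen receptor, was listed at 0 in both pups. The part of platelets in the Itga2b level was not tested.

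Collagen-binding subunits were low apart from Itga1. Itga1 (chr13:114953096-115101964), the collagen receptor subunit of vessel walls, had 2.08 TPM in pup 3 and 2.62 TPM in pup 1, with 47.0% in pup 3 and 49.0% in pup 1 held by an entry with a retained intron. Itga1 shares 685 exon bases with Gm49395, a protein-coding entry on the same strand (2.79 TPM in pup 3, 2.88 TPM in pup 1), so the split of reads between them is uncertain. Itga2, Itga10 and Itga11 ranged from 0.20 to 0.52 TPM over both pups, on 29 to 70 counts each.

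Itga4, which binds VCAM1 and fibronectin, had 0.73 TPM in pup 3 and 1.20 TPM in pup 1. Itga9, which binds tenascin C among others, had 0.45 TPM in pup 3 and 0.82 TPM in pup 1. Itga4 shares 1124 exon bases with Cerkl on the opposite strand, and no source used here says whether the libraries keep strand.

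The leukocyte alpha subunits were all under 1 TPM, though for Itgam in pup 1 this depended on the setting. Itgam, a subunit of complement receptor 3 on microglia and myeloid cells, had 0.31 TPM in pup 3 and 0.76 TPM in pup 1, from 41 counts in pup 3 and 74 in pup 1. Itgam had 0.32 TPM in pup 3 and 1.17 TPM in pup 1 with the M4 annotation. Its posterior mean TPM was 0.68 in pup 3 and 1.22 in pup 1. Itgam shares 3450 exon bases with Gm49368, a protein-coding entry on the same strand. Gm49368 was listed at 0 in both pups, and the split of reads between them is uncertain. Itgal had 0.47 TPM in pup 3 and 0.46 TPM in pup 1, while Itgad, Itgae and Itgax stayed at 0.32 TPM or less. Together they held 2.72% ± 0.00990 of integrin alpha TPM, 3.96% ± 0.0717 of integrin alpha RPKM and 5.17% ± 0.405 over complete coding transcripts. Their beta partner Itgb2 had 0.68 TPM in pup 3 and 1.03 TPM in pup 1, while Itgb7, the partner of Itgae, had 0.40 TPM in pup 3 and 0.62 TPM in pup 1.

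Among cell markers, the microglia and macrophage list had 10 of 10 genes at 1 TPM or more in both pups, summing to 224 TPM in pup 3 and 219 TPM in pup 1, led by C1qb, Tyrobp, C1qc and C1qa. Of 10 lymphocyte markers 0 did, summing to 2.16 TPM in pup 3 and 1.32 TPM in pup 1, with Cd3g, Cd8a and Ncr1 listed at 0 and Cd79b, Cd79a, Cd4 and Cd3e highest. Of 8 neutrophil markers 3 did, and the list summed to 25.5 TPM in pup 3 and 9.25 TPM in pup 1, with S100a8, S100a9, Ngp and Retnlg highest. Most of the sum came from S100a8 (11.1 TPM in pup 3, 3.56 TPM in pup 1) and S100a9 (9.12 TPM in pup 3, 2.97 TPM in pup 1). The part of these cells in the integrin levels was not tested.

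Integrin beta subunits were dominated by 1 gene. Itgb1 (chr8:128685654-128733200), the common partner of the laminin- and collagen-binding alpha subunits, had 44.2 TPM in pup 3 and 50.8 TPM in pup 1, from 4819 counts in pup 3 and 4931 in pup 1. It held 68.0% ± 2.67 of integrin beta TPM and 71.3% ± 2.71 of RPKM, and ranked above 85.05% of protein-coding genes. Its main coding transcript, of 3815 bases, took 99.6% of it in pup 3 and 100% in pup 1, so its level did not rest on short entries.

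Itgb5 (chr16:33829665-33949338), a partner of Itgav that binds vitronectin, had 11.9 TPM in pup 3 and 16.3 TPM in pup 1, or 20.0% ± 1.73 of beta TPM. Itgb8 (chr12:119158022-119238802), which with Itgav activates latent TGF-beta around developing brain vessels, had 4.70 TPM in pup 3 and 6.74 TPM in pup 1. Complete transcripts held 49.8% of the Itgb8 TPM in pup 3 and 62.8% in pup 1, and entries with a retained intron held the rest. The log2 ratio of Itgb8 over Itgb5 was -1.29 ± 0.04 in TPM and -1.63 ± 0.16 in RPKM, and that of Itgb1 over Itgb8 3.05 ± 0.22 in TPM.

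Itgb4, the partner of Itga6 in epithelial hemidesmosomes, had 1.04 TPM in pup 3 and 0.77 TPM in pup 1, from 121 counts in pup 3 and 115 in pup 1. A processed transcript of 375 bases held 0.32 TPM of it in pup 3, on 2.63 counts, and 0 in pup 1. The complete coding transcripts of Itgb4 had 0.73 TPM in pup 3 and 0.78 TPM in pup 1. Among 8 skin markers (50.2 TPM summed in pup 3, 48.5 TPM in pup 1), the keratin genes Krt10 (34.4 TPM in pup 3, 30.0 TPM in pup 1) and Krt1 (14.4 TPM in pup 3, 17.2 TPM in pup 1) were detected. All other markers on the list stayed at 0.70 TPM or less, Dsp among them. The basal-layer marker Krt14 had 0.70 TPM in pup 3 and 0.52 TPM in pup 1. Krt5 and Dsg3, also of the basal layer, had 0.02 TPM or less. The part of skin cells in the Itgb4 and Lamb3 levels was not tested. Itgb6, an epithelial subunit, had 0 counts in pup 3 and 1 in pup 1; a count of 0 allows up to 3 counts, or 0.0728 CPM (counts per 1000000 library counts).

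The partner genes are given as whole lists, made with earlier results of these data known. Of 16 basement membrane partners, 12 reached 1 TPM in both pups, and they summed to 539 TPM in pup 3 and 642 TPM in pup 1. The highest were Sparc, a collagen-binding matrix protein (348 TPM in pup 3, 421 TPM in pup 1), Agrn, which links laminin to dystroglycan (38.3 TPM in pup 3, 50.7 TPM in pup 1), Fbln1 (37.5 TPM in pup 3, 42.0 TPM in pup 1) and Col4a1, the main collagen IV chain (34.3 TPM in pup 3, 37.3 TPM in pup 1). Hspg2, which encodes perlecan, was lower (2.03 TPM in pup 3, 1.89 TPM in pup 1), with a leading entry of 820 bases. Its counts went the other way between pups, 266 in pup 3 and 387 in pup 1. In RPKM, Hspg2 had 0.458 in pup 3 and 0.671 in pup 1. Col4a6 (0.91 TPM in pup 3, 1.19 TPM in pup 1), Ntn4, Col4a3 and Col4a4 did not reach 1 TPM in both pups.

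Dystroglycan, the other large laminin receptor of radial glia, stood above Itgb1, the highest integrin subunit, in TPM and below it in RPKM, in both pups. Its gene Dag1 had 51.1 TPM in pup 3 and 63.9 TPM in pup 1. In RPKM it had 28.3 in pup 3 and 31.9 in pup 1, against 31.5 in pup 3 and 32.4 in pup 1 for Itgb1. Of 14 genes for dystroglycan and the enzymes that build its laminin-binding sugar, 13 reached 1 TPM in both pups, the exception being Large2 (0.91 TPM in pup 3, 1.20 TPM in pup 1). The highest besides Dag1 were B4gat1 (73.9 TPM in pup 3, 105 TPM in pup 1), Pomgnt1 (41.9 TPM in pup 3, 47.6 TPM in pup 1) and Rxylt1 (39.2 TPM in pup 3, 40.0 TPM in pup 1).

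All 7 other laminin receptors reached 1 TPM in both pups. Rpsa, a ribosomal protein also described as a laminin receptor, had 941 TPM in pup 3 and 784 TPM in pup 1, with copies in the genome that make its level uncertain. Sdc3, the neuronal syndecan, had 127 TPM in pup 3 and 169 TPM in pup 1. Sdc2 (21.2 TPM in pup 3, 27.4 TPM in pup 1) and Sdc1 (14.1 TPM in pup 3, 12.6 TPM in pup 1) followed.

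Of 26 other integrin ligands, 21 reached 1 TPM in both pups. Mfge8, which binds integrins that hold Itgav, led with 176 TPM in pup 3 and 227 TPM in pup 1, followed by Vtn, which encodes vitronectin (103 TPM in pup 3, 91.5 TPM in pup 1), Spp1 (47.7 TPM in pup 3, 56.0 TPM in pup 1) and Tnc (23.1 TPM in pup 3, 32.6 TPM in pup 1). Ltbp1 (0.86 TPM in pup 3, 1.20 TPM in pup 1) and Tgfb1 (0.31 TPM in pup 3, 0.46 TPM in pup 1) did not. The fibrinogen genes Fga and Fgg stayed under 0.1 TPM and Fgb was listed at 0 in both pups.

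Of 29 adaptors and kinases that act on integrin tails, 27 reached 1 TPM in both pups, led by Ilk (128 TPM in pup 3, 131 TPM in pup 1), Actn4 (76.4 TPM in pup 3, 85.5 TPM in pup 1), Sharpin (65.8 TPM in pup 3, 72.2 TPM in pup 1) and Fyn (59.7 TPM in pup 3, 70.9 TPM in pup 1). The exceptions were Itgb1bp2, a gene of muscle (0.60 TPM in pup 3, 0.50 TPM in pup 1), and Fermt1, the kindlin of epithelia (0 TPM in pup 3, 0.01 TPM in pup 1). Fermt2 had 47.2 TPM in pup 3 and 50.9 TPM in pup 1, with a leading entry of 331 bases. Its RPKM was lower, 12.04 in pup 3 and 12.48 in pup 1. Of 9 related genes outside the symbol rule, 6 reached 1 TPM in both pups, led by Megf9 (22.9 TPM in pup 3, 29.2 TPM in pup 1), Ntng1 (9.49 TPM in pup 3, 27.2 TPM in pup 1), Ntng2 and Ntn1. Ntn5 and Itgb2l were among those that did not, and Ntng1 was the sole relative over 2-fold apart.

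**Figure D4:**
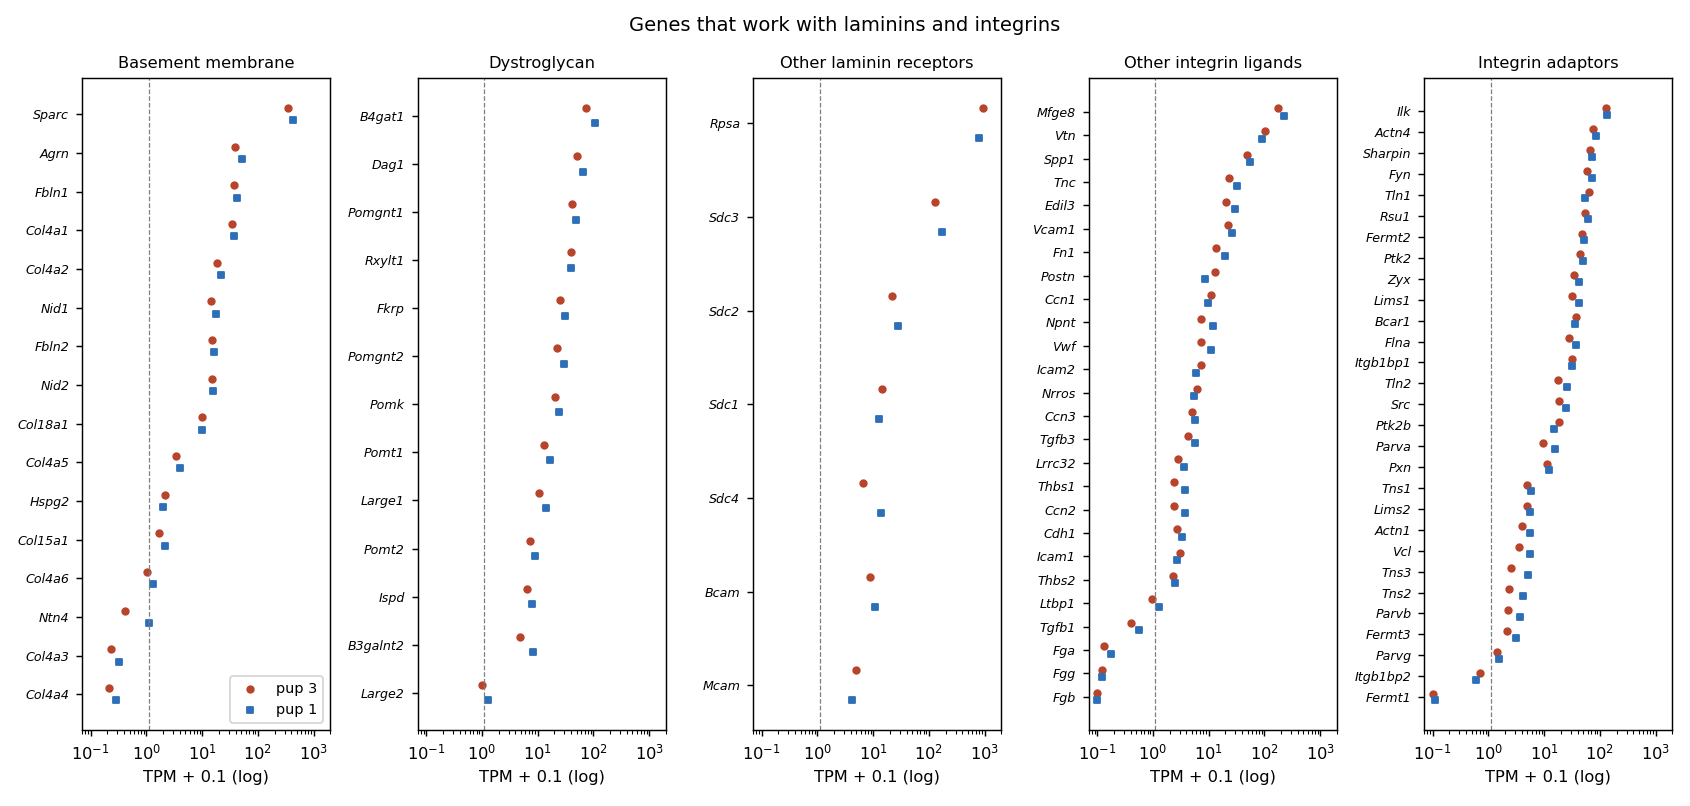
TPM + 0.1 on log axes for genes of 5 lists, which work with laminins and integrins, a point for each pup (circles pup 3, squares pup 1), with a dashed line at 1 TPM. Most genes lie right of the line in both pups, and Rpsa reaches 941 TPM in pup 3 and 784 TPM in pup 1.

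Cell lists that bear on where laminins are made were also taken as whole lists. Endothelial genes reached 1 TPM in both pups for 10 of 10 (206 TPM summed in pup 3, 210 TPM in pup 1; led by Cldn5, Esam, Slco1c1 and Pecam1). Meningeal fibroblast genes did so for 10 of 10 (277 TPM in pup 3, 256 TPM in pup 1; Dcn, Col3a1, Slc6a13 and Col1a2), and pericyte and smooth muscle genes for 8 of 10 (45.4 TPM in pup 3, 49.4 TPM in pup 1; Rgs5, Pdgfrb, Kcnj8 and Acta2). Radial glia and astrocyte genes did so for 10 of 10 (2913 TPM in pup 3, 2902 TPM in pup 1; Fabp7, Vim, Aldoc and Slc1a3), oligodendrocyte lineage genes for 8 of 8 (336 TPM in pup 3, 408 TPM in pup 1; Cspg5, Olig1 and Mbp) and choroid plexus genes for 6 of 8 (1090 TPM in pup 3, 1393 TPM in pup 1; Ttr, Folr1, Kcnj13 and Aqp1). Of 8 skeletal muscle genes, 2 did (17.6 TPM in pup 3, 21.4 TPM in pup 1; Acta1, Mylpf, Tnnt3 and Tnni2). The part of each cell type in the laminin levels was not tested.

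Between the pups, the laminins and integrins that averaged at least 1 TPM differed little. In TPM they differed mostly in 1 direction, which was also that of most protein-coding genes at that level. Of the 12 members that reached 5 TPM in a pup, 0 were over 2-fold apart on the scale of TPM + 1, against 1.81% of such protein-coding genes. With 1 pup on each side there is no replicate check of a difference. The log2 ratio of TPM + 1, pup 3 over pup 1, was below 0 for 19 of the 20 members that averaged at least 1 TPM, against 81.9% of such protein-coding genes. Its median was -0.33 for members and -0.25 for those protein-coding genes. With TMM scaling of CPM the ratio was below 0 for 12 of the 20 members, against 45.6%, and the medians were -0.05 and 0.03. The direction seen in TPM was thus shared by most genes. With TMM scaling the members' median stayed below 0 but was smaller in size, while that of protein-coding genes lay above 0.

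Long transcripts had lower ratios in general, which bears on these genes, whose leading entries had a median of 4540 bases against 2511 for protein-coding genes. The median log2 ratio of protein-coding genes was -0.02 for leading entries under 1000 bases, -0.26 for 2000 to 4000 bases, -0.39 for 4000 to 6000 bases and -0.49 for 6000 bases or more. Relative to the median of its length class, the members' median ratio was 0.04, with 12 members above and 8 below. Itga6 (-0.53) and Itga2b (-0.50) were among the lowest ratios, and Lama5 had the highest (0.15). Lamc1 and Lama4 lay above their class by 0.43 and 0.35. Itga2b and Itgav stood at -0.48 and -0.37 from theirs, the class of the shortest leading entries. Those entries, of 463 bases in Itgav and 623 in Itga2b, are not complete coding transcripts. The longest complete one of Itgav has 7054 bases, and the Itgav ratio of -0.39 lay above the -0.49 of the longest class. For Itga2b it has 3437 bases, and the ratio lay below the -0.26 of the 2000 to 4000 class. In Lamc1, an incomplete entry was higher in pup 3 (3.32 TPM, 2.03 in pup 1). Its complete transcript was lower there (4.20 TPM, 5.56 in pup 1).

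**Figure D5:**
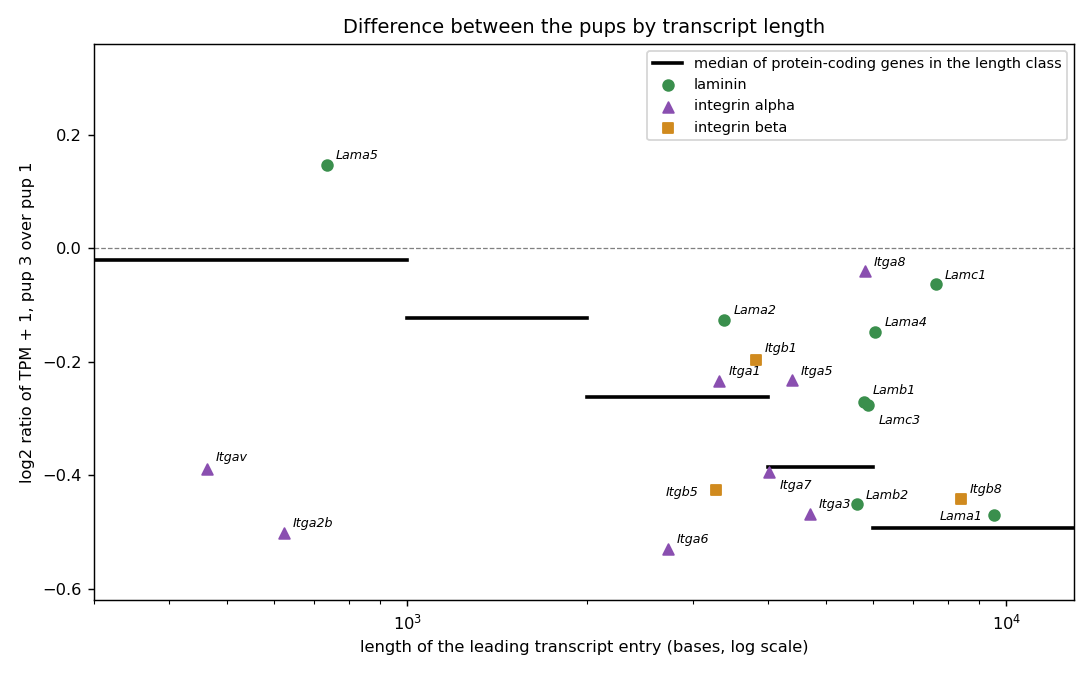
Log2 ratio of TPM + 1, pup 3 over pup 1, against the length of the leading transcript entry (log axis) for 19 of the 20 members that averaged at least 1 TPM, with bars for the median of protein-coding genes in each length class. The bars step down to -0.49 at 6000 bases or more, and of the members drawn 12 lie above their bar and 7 below.

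In counts, without length, 29 members had 100 or more counts over both pups. In CPM without scaling, the 95% Clopper-Pearson interval of the ratio lay below 1 for 14 of them (48.3%), against 47.3% of protein-coding genes, and above 1 for 0, against 19.9%. The intervals of the other 15 held 1. Itgb8 had the ratio 0.71 (0.64 to 0.77) and Itga6 0.74 (0.68 to 0.81). Itgb1, with the most counts, had 0.97 (0.93 to 1.01), Lamb1 0.98 (0.91 to 1.06) and Lama4 0.96 (0.87 to 1.06). With TMM scaling, the interval lay below 1 for 8 of the 29, against 28.5% of protein-coding genes, and above 1 for 3 (Itgb1, Lamb1 and Itga11), against 36.6%. Itgb8 then had the ratio 0.79 (0.72 to 0.86), Itga6 0.83 (0.76 to 0.90), Itgb1 1.08 (1.04 to 1.13), Lamb1 1.09 (1.01 to 1.18) and Lama4 1.07 (0.97 to 1.18). The interval covers counting error in 2 libraries and compares those libraries, not conditions.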

How the data were processed

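Values come from the M21 gene and transcript tables on mouse genome mm10, per the file headers and labels, with M4 as an alternative. The authors deposited expected counts (estimated counts that split reads mapping to several places), TPM as point and posterior mean estimates, FPKM, and for transcripts the percent of gene TPM that each one holds. The sources used here name no aligner or quantifier and do not state strandedness. RNA was primed with oligo-dT and libraries were made by tagmentation, per the labels.

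Symbols, types and coordinates were matched from GENCODE M21, and exon sequences were cut from its transcripts. All 55536 GENCODE genes are listed in the tables. The 26345 other rows (spike-ins and entries named by a number), with 0.00068% of counts in pup 3 and 0.00083% in pup 1, were left out of library sizes. The members and lists were chosen with earlier results of these data known. Named were all members and, of each list, the 4 highest by mean TPM, markers at 0 and genes needed for small counts. Some genes are not reported or drawn here, though counts and sums include them. Fermt2, Hspg2, Dag1 and Itgb2l were named after their values were seen.

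A gene was called detected at 1 TPM. Log2 ratios used a pseudocount of 1, gene pairs 0.1. The 2 libraries form 1 group, so no p-value was computed, and ± gives the SD over 2 pups. TMM factors came from edgeR 4.0.16 and size factors from DESeq2 1.42.0, on rounded expected counts. Code was tested on simulated data. The RPKM scale, the values over complete coding transcripts and the counting intervals with TMM or DESeq2 scaling were added after seeing the data. So was the length class by the longest complete coding transcript.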

Additional observations from a re-analysis of the deposited data

How the results depend on the processing

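No paired analysis was possible because the 2 libraries form 1 group. Every ratio compares 1 pup with 1 pup, and counts under 100 per gene limit the order of the low genes. The cause of each shift given here was not tested unless the setting itself changes which entries are counted.

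Detected laminin genes stayed within 1.5 times under every alternative run. Over complete coding transcripts, 5 integrin alpha genes were detected in place of 8, since partial entries were left out. At a TPM minimum of 0.5, 5 integrin beta genes were detected in place of 3. The count of members over 2-fold apart was 0 under every alternative. The members' median log2 ratio of -0.33 was -0.0504 in CPM with TMM, -0.0457 with DESeq2 size factors, -0.19 in CPM without scaling and -0.23 in FPKM. Relative to the length class, the median of 0.04 was -0.0046 with a pseudocount of 0.1 and -0.00042 with DESeq2 size factors, so its sign was not stable. With the class of the longest complete coding transcript in place of the leading entry, that median was 0.067. The counting interval of the CPM ratio lay below 1 for 14 members and above 1 for 0 without scaling, and below 1 for 8 and above 1 for 3 both with TMM and with DESeq2 size factors.

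The laminin alpha share of 31.7% was 28.2% with M4, 20.99% over complete coding transcripts and 23.0% in RPKM, and without either pup 30.6% to 32.7%. The Itgb1 share of 68.0% was 64.8% in posterior mean TPM, 71.3% over complete coding transcripts and 71.3% in RPKM, and without either pup 66.1% to 69.9%.

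Of the gene pairs, given as log2 ratios, Lamb1/Lamb2 (0.06) changed sign, to -0.13 in posterior mean TPM and to -0.041 without pup 3. The other 7 pairs kept their sign in every setting run on the mean of both pups and, in TPM, without either pup. Over complete coding transcripts, Itgav/Itga5 was -0.15 in pup 3 and 0.36 in pup 1. In posterior mean TPM, Lama2/Lama4 was -1.31, Itga6/Itga3 1.05, Itgav/Itga5 2.52 and Itgb8/Itgb5 -1.42. With a pseudocount of 1, Lama4/Lama5 was 2.02, Lama2/Lama4 -1.23, Itga6/Itga3 1.03, Itgav/Itga5 2.26 and Itgb8/Itgb5 -1.17. With M4, Lama2/Lama4 was -2.28, Itga6/Itga3 1.27, Itgav/Itga5 2.75 and Itgb8/Itgb5 -1.36. Lama2/Lama4 was -1.44 in FPKM and -1.46 without transcripts of effective length under 200 bases. Over complete coding transcripts, Lamc1/Lamb1 was -0.81, Lama4/Lama5 3.60, Lama2/Lama4 -2.86, Itga6/Itga3 0.29, Itgav/Itga5 0.10, Itgb8/Itgb5 -2.11 and Itgb1/Itgb8 3.87. In RPKM these 7 pairs were -0.67, 3.44, -2.03, 0.86, 0.44, -1.63 and 3.50. The leading transcript was the same in both pups for 8 of the 9 members at 5 TPM or more in both pups with more than 1 listed transcript, and the count was also 8 in posterior mean TPM and with M4.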
